A study of Mus musculus with 11 samples.

Results

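The NMDA receptor subunits are the 7 mouse genes Grin1, Grin2a, Grin2b, Grin2c, Grin2d, Grin3a and Grin3b. Their members on the bead array were the probes whose symbol in the platform annotation is one of these genes. That rule gave 9 of 45281 probes, which measure 6 of the 7 genes out of the 19057 named on the array, since the annotation pairs no probe with Grin1. The family was chosen because the Grin3a probe was lower in kidneys of Cldn16-deficient mice than in wild-type kidneys, so that difference is described here without a test.

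Kidney RNA of 11 female mice aged 8 weeks was hybridised to Illumina mouse arrays, with 1 array per numbered mouse. The groups were 4 Cldn16 -/- mice (KO), 3 Cldn16 +/- mice (Het) and 4 Cldn16 +/+ mice (WT). All groups shared a mixed background of 129S7/SvEvBrd-Hprtb-m2 and C57BL/6N. The labels give postnatal day 59 (P59) for KO 1, Het 1, WT 1 and WT 2, and day 58 (P58) for the other 7 mice. The product of Cldn16 sits in tight junctions of thick ascending limb cells and takes part in the reabsorption of magnesium and calcium between cells. The labels do not describe how the null allele was built, and they do not say whether the mice were littermates. The kidney poles had been removed, and the rest of the organ was measured as bulk tissue. In such tissue, fewer cells of a type and less RNA per cell cannot be told apart.

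NMDA receptors are glutamate-gated channels that let calcium into the cell, and each is an assembly of subunits around 1 pore. The GluN1 subunit, encoded by Grin1, is present in NMDA receptors and binds glycine or D-serine. The GluN2 subunits, encoded by Grin2a to Grin2d, bind glutamate and set how the channel opens. The GluN3 subunits, encoded by Grin3a and Grin3b, bind glycine, and receptors that hold them pass less calcium. The receptors are best known from synapses in the brain, and they have also been described in kidney tubules and glomeruli.

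A probe was called detected on an array at a deposited detection p under 0.01. By that rule 36.5% of all probes were detected on all 11 arrays, and 49.5% on none. Across arrays between 41.6% and 43.6% of probes were detected, and the log2 values of pairs of arrays correlated at 0.981 to 0.991. The lowest deposited intensity of a detected probe ran from 76.6 to 86.6 units over the arrays. The Cldn16 probe (ILMN_2954714) averaged 8.98 ± 0.33 in KO (SD, n = 4), 9.33 ± 0.06 in Het (SD, n = 3) and 9.50 ± 0.23 in WT (SD, n = 4) on the log2 scale. Its KO minus WT difference was -0.53 ± 0.16 (SE), with a limma adjusted p of 0.227. It was detected on all KO arrays, and where the probe lies relative to the targeted part of the gene is not known here, so it does not check the labels. Markers of the tubule and glomerulus were present, with 10 of 11 on the array detected on all 11 arrays.

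The 4 GluN2 genes gave no detectable signal in kidney. They carry 7 probes, which makes 77 measurements over the 11 arrays, and 0 of these had a detection p under 0.05. By the rule of 0.01, 49.5% of all probes were likewise detected on no array. The smallest detection p was 0.0562, for a Grin2a probe (ILMN_2582530) on the KO 1 array, where its intensity was 76.6. All 77 intensities lay between 52.2 and 76.6. Grin2a lies on chromosome 16, which also holds Cldn16. Its other probe (ILMN_2623457) ran from 54.3 to 66.2 over all arrays, with means of 56.8 ± 2.85 in KO (SD, n = 4), 60.7 ± 6.01 in Het (SD, n = 3) and 58.2 ± 2.36 in WT (SD, n = 4). Grin2b, on chromosome 6, has 3 probes, and their ranges were 62.9 to 73.2, 52.2 to 69.6 and 57.3 to 68.5. The Grin2c probe (chromosome 11) ran from 60.1 to 71.0, and the Grin2d probe (chromosome 7) from 59.7 to 69.1. No fold change is given for these 7 probes, because none was detected in any group. A probe that is not detected sets only an upper bound on this array. Nothing was measured for Grin1 (chromosome 2), so the data do not say whether a complete receptor was expressed.

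**Figure D1:**
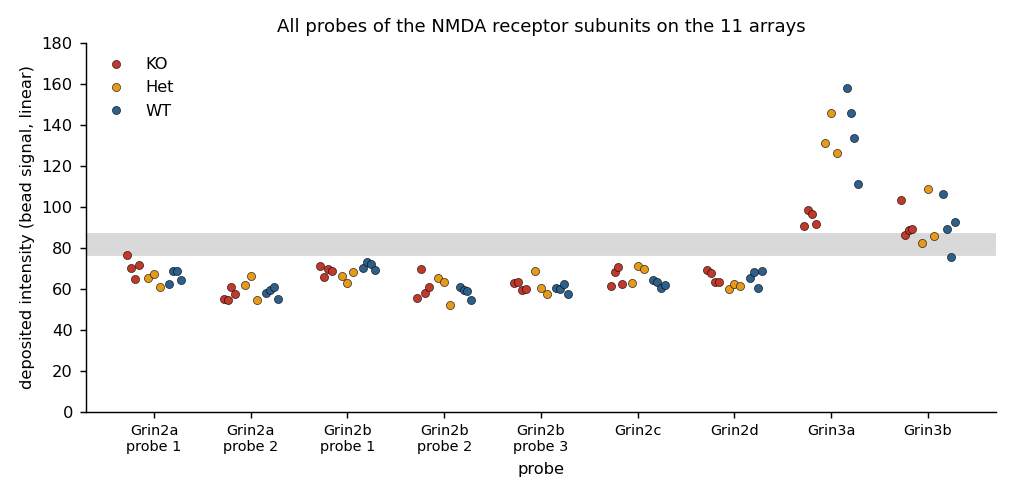
Deposited intensity (vertical axis, array units) of the 9 subunit probes on each array, coloured by genotype, with slides not marked. The grey band spans the lowest intensity of a detected probe on the 11 arrays, 76.6 to 86.6. The 7 GluN2 probes stay between 52.2 and 76.6 in all genotypes, and the Grin3a and Grin3b probes reach above the band.

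Both GluN3 genes were detected. Grin3a is measured by 1 probe (ILMN_2513378) and lies on chromosome 4. The platform annotation names the gene for this probe but lists no transcript record, unlike for the other subunit probes. The probe was detected on 11 of 11 arrays, with a listed detection p of 0 on each. Its deposited intensities were 90.5, 98.4, 96.4 and 91.6 in KO kidneys, 131, 146 and 126 in Het kidneys, and 158, 146, 134 and 111 in WT kidneys. All 4 KO arrays lay below every Het and every WT array, while Het and WT arrays overlapped. The intensity averaged 94.2 ± 3.82 in KO (SD, n = 4), 134 ± 10.3 in Het (SD, n = 3) and 137 ± 19.9 in WT (SD, n = 4). The ratio of these means was 0.687 for KO over WT and 0.980 for Het over WT. The KO values were close to the limit of detection: they exceeded the lowest detected intensity of their own array by 7.64 to 16.3 units. That margin was 49.6 to 59.3 units in Het and 29.6 to 75.4 units in WT.

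**Figure D2:**
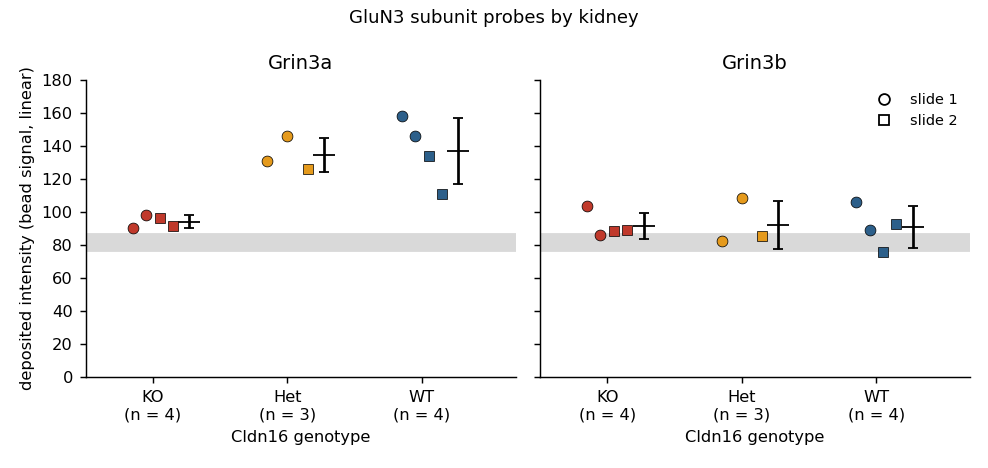
Deposited intensity (vertical axis, array units) of the Grin3a and Grin3b probes on each array of the KO, Het and WT groups, with slide 1 as circles, slide 2 as squares, bars for mean ± SD and a grey band for the lowest intensity of a detected probe (76.6 to 86.6). Grin3a in KO (90.5 to 98.4) sits below all Het and WT arrays, and the Grin3b values of the 3 genotypes overlap.

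After background correction and quantile normalization, the log2 value of Grin3a was 5.40, 5.57, 5.58 and 5.46 in KO, 6.37, 6.43 and 6.48 in Het, and 6.73, 6.73, 6.68 and 6.13 in WT. The lowest WT array, WT 4, lay 0.55 above the highest KO array, and the lowest Het array lay 0.79 above it. Means were 5.50 ± 0.09 in KO (SD, n = 4), 6.43 ± 0.05 in Het (SD, n = 3) and 6.57 ± 0.29 in WT (SD, n = 4), so that WT had the widest spread. The other 3 WT arrays lay between 6.68 and 6.73.

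The KO minus WT difference of Grin3a was -1.07 ± 0.13 (SE of the limma model) on the log2 scale, a value 2.09-fold lower in KO. This contrast chose the gene, so the size is given as a description. In it, 0.0394% of the 22856 probes tested passed an adjusted p of 0.05, which is 9 probes, and 0.0219% did so with a lower value in KO. Probes with every KO array below every WT array made up 3.45% of those tested, and probes with every KO array below every Het array 3.01%. Probes with every KO array below all Het and WT arrays, as Grin3a had, made up 0.704%. Nothing is read from the position of Grin3a among them, since it was picked from that contrast.

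The size of the difference depended on the treatment of background. With no background correction the KO minus WT difference was -0.63, and with the authors' processed values it was also -0.63. A larger offset of 50 gave -0.71. Within slide 1 the KO minus WT difference was -1.25, and within slide 2 it was -0.89, with 2 KO and 2 WT arrays on each slide. Across all 25 other settings it stayed below 0, between -1.25 and -0.63.

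**Figure D3:**
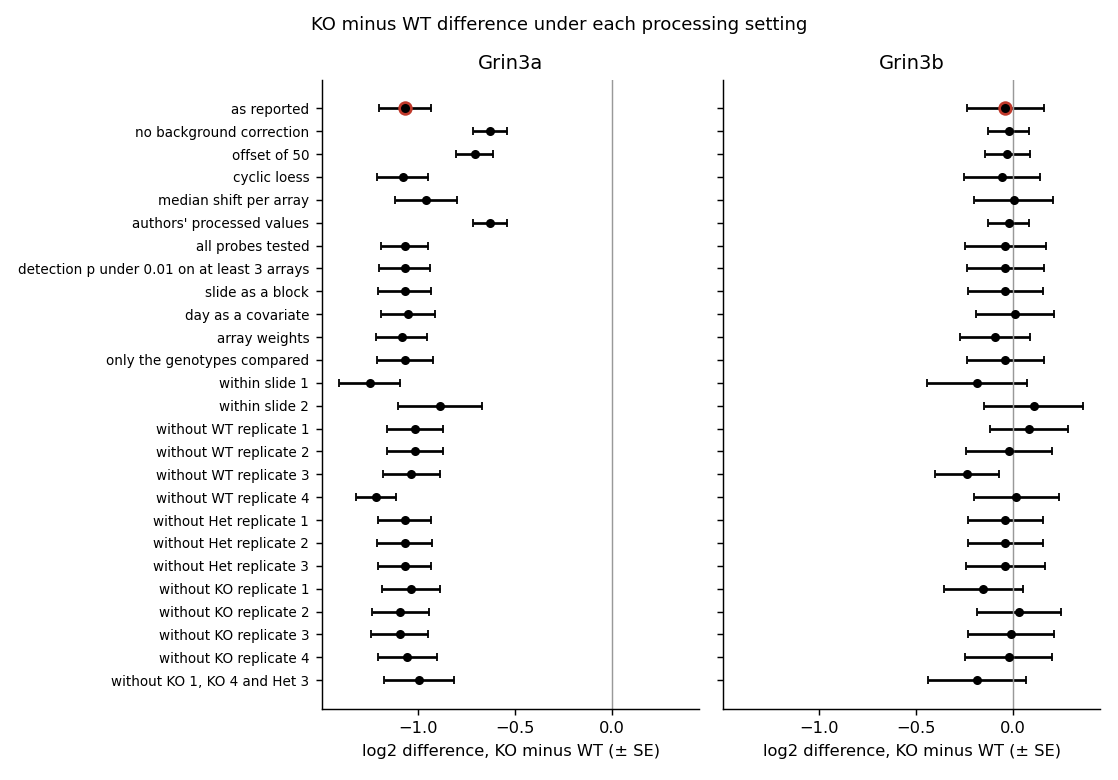
KO minus WT difference (log2, ± SE) of Grin3a and Grin3b under each processing setting, with the values as reported in red. Grin3a stays between -1.25 and -0.63, and Grin3b between -0.24 and 0.11.

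The heterozygous kidneys were compared with KO and WT, and the part of Cldn16 dose in these values was not tested. Grin3a in Het differed by -0.14 ± 0.14 from WT, and KO differed by -0.92 ± 0.14 from Het. These 2 differences share the Het arrays, and each shares arrays with the contrast that chose the gene, so neither was tested. The distance of Het from the mean of KO and WT does not use the KO minus WT difference, and it was tested. Grin3a in Het lay 0.39 ± 0.13 above that mean, with 3 of 3 Het arrays above it. Its limma adjusted p over all probes was 0.999 (unadjusted 0.00915), so the departure did not pass the threshold. In this comparison 0 of 22856 probes passed (0%), with 954 at an unadjusted p under 0.05.

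Grin3b, the other GluN3 gene, lies on chromosome 10 and is measured by 1 probe (ILMN_1229979). It was detected on 10 of 11 arrays, the exception being WT 3, where the detection p was 0.0758. Its intensities were 103, 86.0, 88.8 and 88.9 in KO, 82.4, 108 and 85.5 in Het, and 106, 89.3, 75.6 and 92.7 in WT. The 3 genotypes overlapped across nearly their whole range. Log2 means were 5.42 ± 0.24 in KO (SD, n = 4), 5.46 ± 0.29 in Het (SD, n = 3) and 5.46 ± 0.41 in WT (SD, n = 4). KO minus WT was -0.04 ± 0.20, and KO minus Het was -0.04 ± 0.21, both smaller than the spread within a genotype. Within slides the KO minus WT difference was -0.19 on slide 1 and 0.11 on slide 2, so its sign was not stable. The distance of Het from the mean of KO and WT was 0.02 ± 0.19, with a limma adjusted p of 0.999. These values do not show that Grin3b was equal in KO and WT, since the SE of 0.20 leaves room for a difference.

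The mouse-to-mouse variation of the GluN3 genes was compared next. After each genotype's mean was subtracted, the Pearson r of Grin3a with Grin3b over 11 arrays was -0.22, given as a description. Postnatal day was compared with genotype held in the model. Grin3a differed by 0.07 ± 0.12 between P59 and P58 mice, with a limma adjusted p of 0.960. Grin3b differed by 0.20 ± 0.18, with a limma adjusted p of 0.913. In this comparison 1 probe passed, 0.00438% of those tested: it measures Asns, the asparagine synthetase gene, and was 0.94 ± 0.09 higher at P59 (limma adjusted p = 0.00544). All P59 arrays were on slide 1, so day and slide are partly confounded, and with slide as a block Asns differed by 0.97 and no longer passed (limma adjusted p = 0.127). It also missed the threshold without Het 1 (0.88, limma adjusted p = 0.0743) and without KO 1, KO 4 and Het 3 (0.97, limma adjusted p = 0.0823), and over all its alternatives the adjusted p ran from 0.00229 to 0.127. Within genotypes the P59 minus P58 difference of Grin3a was -0.14 in KO, -0.08 in Het and 0.33 in WT, where the low WT 4 array is a P58 array. In WT the P59 arrays were all on slide 1 and the P58 arrays all on slide 2, so day and slide cannot be told apart there. The KO and Het values each rest on 1 P59 array.

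Genes of the rest of the glutamate pathway were taken as 6 lists with 110 entries, of which 100 are on the array and 71 were tested. None of the 71 passed the adjusted threshold of 0.05 in KO against WT, and 13 (18.3%) had an unadjusted p under 0.05, against 2947 of all 22856 tested probes (12.9%). These shares are of unlike sets, since each of the 71 genes is represented by its brightest tested probe and the 12.9% covers every tested probe. The smallest limma adjusted p among the 71 was 0.165. None passed in Het against the mean of KO and WT or in P59 against P58. Over all tested probes the median KO minus WT difference was 0.00071.

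Other ionotropic glutamate receptors are the AMPA and kainate channels. Of the 9 on the array, Gria3 and Gria4 were detected on all 11 arrays, Grik5 on 8, and Gria2 and Grik2 on 1 each. Gria1, Grik1, Grik3 and Grik4 were detected on none. The median KO minus WT difference of the 5 tested genes was -0.11. Gria3, which encodes an AMPA receptor subunit and is on the X chromosome, had the largest difference: -0.55 ± 0.12, with a limma adjusted p of 0.169. The log2 value of its brighter probe was 6.37, 6.59, 6.75 and 6.71 in KO, 6.94, 6.74 and 7.16 in Het, and 7.12, 7.08, 7.28 and 7.15 in WT. All KO arrays were below all WT arrays, while 1 Het array, Het 2, lay below the highest KO array. A dimmer Gria3 probe (ILMN_2638066) gave 6.01, 6.18, 6.26 and 6.13 in KO, 6.33, 6.36 and 6.55 in Het, and 6.65, 6.67, 6.49 and 6.29 in WT. On it the KO arrays lay below all WT arrays (highest KO 6.26, lowest WT 6.29) and below all Het arrays. The KO minus WT difference was -0.38 ± 0.11 (limma adjusted p = 0.219). Of all tested probes, 3.45% had every KO array below every WT array, and 0.704% below every Het and WT array. A further 2 Gria3 probes were detected on no array. Grik2, a kainate receptor subunit, was detected on 1 of 11 arrays, so no fold is given.

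**Figure D4:**
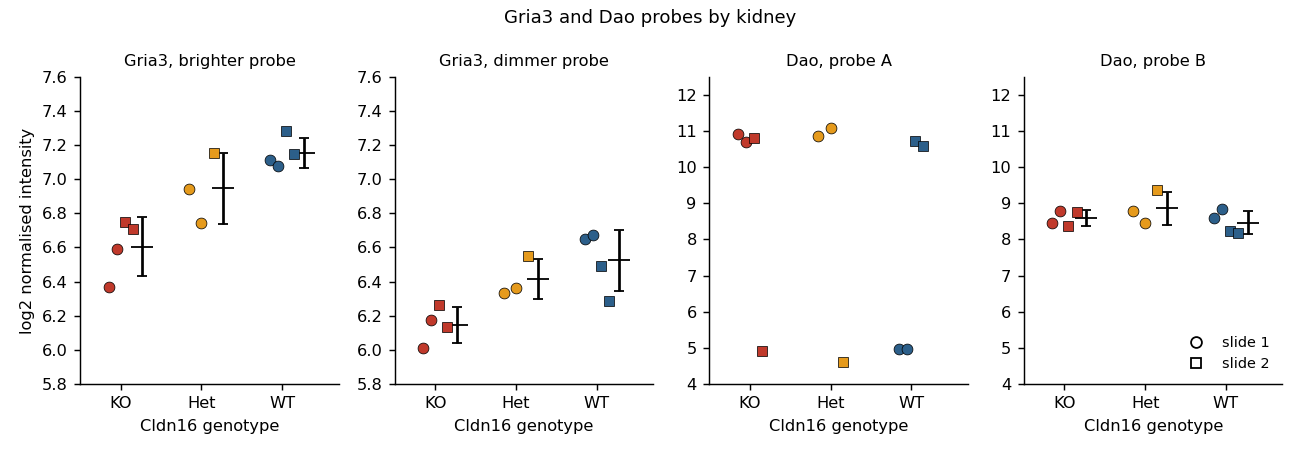
Normalized log2 value of each array for 2 probes of Gria3 and 2 probes of Dao, by genotype (KO, Het, WT), with mean ± SD except for the first Dao probe (probe A). KO lies below WT on both Gria3 probes, while the first Dao probe is low on 4 arrays (4.60 to 4.97) and high on 7 (10.59 to 11.09), whatever the genotype.

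Metabotropic glutamate receptors act through G proteins rather than as channels. Of 6 on the array, Grm4 alone was detected, on 8 arrays, and differed by 0.23 ± 0.13 between KO and WT (limma adjusted p = 0.468). Grm3, Grm5, Grm6, Grm7 and Grm8 were detected on no array.

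Enzymes and carriers that supply or remove the ligands were more widely detected. For glycine and serine, 11 of 18 genes on the array were detected on all arrays. Of 13 tested, 8 had a higher and 5 a lower mean in KO, with a median difference of 0.03. Psat1, an enzyme of serine synthesis, differed by 0.47 ± 0.20 (limma adjusted p = 0.346). The Dao gene encodes the D-amino acid oxidase that degrades D-serine, and its probes disagreed. One of them (ILMN_2862633) had a difference of 1.53 ± 1.81 (limma adjusted p = 0.756), with low values on KO 4, Het 3, WT 1 and WT 2 and high values on the other 7 arrays. The other (ILMN_2592844) was detected on all 11 arrays and differed by 0.13 ± 0.20 (limma adjusted p = 0.823).

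For glutamate and kynurenines, 11 of 21 genes on the array were detected on all arrays, and the 15 tested had a median difference of 0.01. Slc1a2, a glutamate transporter, differed by -0.25 ± 0.12 on its brightest probe (limma adjusted p = 0.411), while 2 other tested probes differed by 0.22 and 0.10. Glud1, the glutamate dehydrogenase, differed by 0.21 ± 0.13 (limma adjusted p = 0.511), with other probes at -0.43 and 0.25. Neither gene has a direction that its probes share.

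Partners that anchor and move NMDA receptors in neurons gave 18 tested genes, 9 with a higher and 9 with a lower mean in KO, and a median difference of 0.01. Actn2, an actin-binding protein that attaches to NMDA receptor subunits, differed by -0.65 ± 0.14 (limma adjusted p = 0.165), and by -0.48 ± 0.15 on its other tested probe. Git1, a signalling scaffold, differed by 0.43 ± 0.19 (limma adjusted p = 0.362), and by 0.28 ± 0.12 on its other probe. Of the 19 tested genes of calcium signalling, 13 had a higher and 6 a lower mean in KO, with a median of 0.02. Csnk2a1, a catalytic subunit of casein kinase 2, differed by -0.65 ± 0.28 (limma adjusted p = 0.350), and its other probes by -0.30 and -0.23. Camk2d, a calcium/calmodulin-dependent kinase, differed by 0.30 ± 0.12 (limma adjusted p = 0.316) on its brightest probe, while others differed by -0.26, 0.06 and -0.19.

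**Figure D5:**
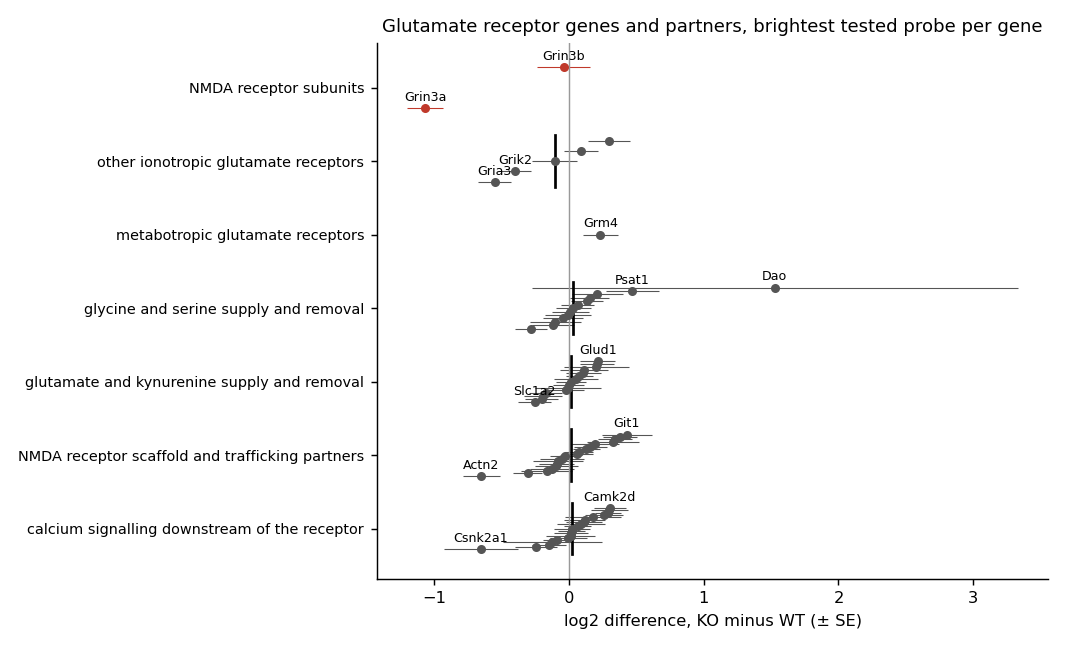
KO minus WT difference (log2, ± SE) of each tested gene in the subunit list and the 6 pathway lists, with a black bar at the median of lists with at least 5 tested genes. Grin3a (-1.07) chose the family and is shown as a description, and Grik2 and Gria2 were detected on 1 array each. The list medians lie between -0.11 and 0.03.

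Genes next to the GluN3 genes on the chromosome were compared in the gene table of assembly GRCm38.p6. Ppp3r2 lies within Grin3a, and its probe was detected on 0 of 11 arrays. The 10 nearest tested neighbours of Grin3a differed between KO and WT by -0.39 (Smc2) to 0.14 (Baat), and 0 passed the limma threshold, with a smallest adjusted p of 0.241. Those of Grin3b differed by -0.16 (Arid3a) to 0.67 (Cnn2), and 0 passed, with a smallest adjusted p of 0.259. Tmem259, which overlaps Grin3b, differed by 0.32 ± 0.16 (limma adjusted p = 0.412).

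The patterns most like that of Grin3a over the 11 arrays were those of Odf4 (Pearson r = 0.93), Gria3 (its dimmer probe, r = 0.92), Dapk2 (0.91), Ube2l6 (0.90) and Scnm1 (0.89). The most opposed were Slc8a1 (-0.93), Gas7, Mlh3 and Mdk (each -0.92) and Txndc15 (-0.90). Slc8a1 encodes a sodium-calcium exchanger and Mdk the growth factor midkine. These values are the extremes of many, they share the genotype difference that chose Grin3a, and they were not tested. For some genes other tested probes did not keep the sign of the KO minus WT difference. They gave -0.08 and -0.27 for Gas7 (0.20 on the probe named for likeness), 0.09 for Ube2l6 (-0.60) and 0.01 for Dapk2 (-0.27). Other tested probes of Odf4, Gria3, Scnm1, Slc8a1, Mlh3, Mdk and Txndc15 kept the sign. With each genotype's mean subtracted, r with Grin3a was 0.86 for the Gria3 probe, 0.71 for Dapk2, 0.42 for Scnm1, 0.36 for Ube2l6 and 0.28 for Odf4. It was -0.82 for Txndc15, -0.49 for Gas7, -0.43 for Mdk, -0.37 for Slc8a1 and -0.03 for Mlh3. Without WT 4, Dapk2 was at -0.08, Scnm1 at 0.01, Ube2l6 at -0.19, Odf4 at 0.34 and Txndc15 at 0.05. Without it Gas7 was at 0.02, Mdk at -0.14, Slc8a1 at -0.08 and Mlh3 at 0.25. The Gria3 value was 0.87 without WT 4, but the brighter Gria3 probe gave 0.16, and 0.44 without WT 4. The highest values with genotype means subtracted were those of Itga7 and Rad51c (each 0.96), Cad (0.92), Gtf3c6 and Eng (each 0.90). Without WT 4 these became 0.74 for Itga7, 0.68 for Rad51c, 0.47 for Cad, 0.44 for Gtf3c6 and 0.71 for Eng, so that 1 array carried part of the likeness.

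Markers of other cell types were set beside the Grin3a difference. For nerve, a tissue known for these receptors, 8 of 11 markers on the array were detected on no array (Snap25, Tubb3, Prph, Nefl, Nefm, Gap43, Sox10 and S100b). Uchl1 was detected on 10 arrays, and Syt1 and Stmn2 on 2 each. Of all probes, 49.5% were detected on no array. The sum of the 3 tested nerve markers (normalized intensity, linear scale) ran from 94.8 to 115 in KO, 92.6 to 109 in Het and 90.6 to 106 in WT. For adrenal gland, 8 of 12 markers were detected on no array (Star, Th and Dbh among them), against 49.5% of all probes. Cyp11b2 and Pnmt were detected on 5 arrays each, Cyp11a1 on 4 and Cyp11b1 on 1. The 3 tested adrenal markers summed to 94.3 to 127 in KO, 91.1 to 106 in Het and 82.9 to 111 in WT. Of these 3, Pnmt (0.52) and Cyp11a1 (0.42) had higher means in KO and Cyp11b2 (-0.05) a lower one. The median difference was 0.42, and 2 of the 3 had an unadjusted limma p under 0.05. The nerve and adrenal sums keep the background-correction offset of 16 for each probe, which makes up a large part of them. Their overlap between genotypes therefore says little. The arrays KO 1, KO 4 and Het 3 were high in adipose markers. All 6 tested adipose markers, of 8 on the array, had higher means in KO than in WT. Their median difference was 0.67, and 2 had an unadjusted limma p under 0.05. They summed to 711 to 3864 in KO, 417 to 4277 in Het and 622 to 1426 in WT. Retn and Fabp4 were detected on no array. Without KO 1, KO 4 and Het 3, a choice made after seeing the data, only KO 2 and KO 3 remained in KO. The KO minus WT difference of Grin3a was then -0.99 ± 0.18. Of the 10 tested tubule and glomerulus markers, the mean log2 distance from the WT mean was 0.14 to 0.36 in KO, -0.08 to 0.03 in Het and -0.04 to 0.04 in WT. The KO arrays were all higher in that mean, to which Aqp2 (KO minus WT 1.02, a water channel of the collecting duct) and Slc12a3 (0.42, the sodium-chloride cotransporter of the distal convoluted tubule) added most. The list median was 0.11, and 3 of the 10 had an unadjusted limma p under 0.05. Means were higher in KO for 8 of the 10 and lower for Umod (-0.11) and Kap (-0.06). The summed level of the list overlapped between KO and WT and ran from 163185 to 187178 in KO, 149516 to 166124 in Het and 156995 to 172242 in WT. Of 5 tested immune markers, 4 had lower means in KO: Lyz2 (-0.53), Cd3g (-0.39), Adgre1 (-0.30) and Cd3e (-0.12), while Cd74 had a higher one (0.48). The median of the list was -0.30, and 3 of 5 had an unadjusted p under 0.05. The mean log2 distance of the immune markers from the WT mean ran from -0.24 to -0.07 in KO, -0.24 to 0.01 in Het and -0.12 to 0.20 in WT. Of 8 tested endothelial markers, 7 had higher means in KO, with a median of 0.18. Tie1 differed most (0.44), and it alone had an unadjusted limma p under 0.05. The mean log2 distance of the endothelial markers ran from 0.02 to 0.32 in KO, 0.08 to 0.31 in Het and -0.13 to 0.13 in WT. The same mean overlapped between KO and WT for podocyte, mural and fibroblast markers. None of the markers of these lists passed the limma adjusted threshold in KO against WT, and the part of tissue composition in the Grin3a difference was not tested.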

How the data were processed

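The authors deposited, per the file headers, an intensity (average bead signal, linear scale) and a detection p-value per probe and array. BeadStudio was used, per the submitters' processing notes. Not given in the sources used here are how background was treated and how detection p-values were defined. Deposited intensities were not normalized between arrays (medians 70.3 to 76.6). In another deposited table the authors' processed intensities had medians of 73.6 to 73.7, and their linear scale was found from the values.

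Genotype groups follow the labels, where each sample is 1 numbered mouse; replicate numbers pair nothing. Slide 1 held 6 arrays (KO 1, KO 2, Het 1, Het 2, WT 1, WT 2) and slide 2 held 5. The intensities were corrected with limma's normexp method (negative controls inferred from the detection p-values, offset 16), put on the log2 scale and quantile normalized (limma 3.58.1, R 4.3.3). A probe entered the test when at least 3 arrays gave it a detection p under 0.05, which kept 22856 of 45281. One linear model (lmFit and eBayes, prior degrees of freedom 5.19) held a mean per genotype. Tests are two-sided, with Benjamini-Hochberg adjustment across the tested probes. The fit was tested on simulated data. The number of arrays limits precision, and p-values measure the spread between these mice.

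Symbols came from the platform annotation (34885 probes with 1 symbol, 10396 with none or several; 0 symbols updated by a current gene table). A gene on a list is represented by its brightest tested probe. From each pathway list the text names genes past the threshold and the 2 with the largest absolute KO minus WT difference; for likeness to Grin3a it names the 5 highest and 5 lowest Pearson r, and the 5 highest after subtraction of genotype means. Neighbours and markers are given as extremes or defining genes. The members and lists were chosen with earlier results of these data known. Alternatives covered background correction, normalization, the detection filter, slide, day, array weights, the groups in the model and leaving out each array.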

Additional observations from a re-analysis of the deposited data

Results flagged for a closer look

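In 60 groups of 4 arrays (30 probes, KO and WT), 7 held an array far from the other 3 by Dixon's ratio; chance alone marks about 1 in 20 groups. For Grin3a, WT 4 was low at 6.13 on the log2 scale, against 6.68 to 6.73 on the other WT arrays. In KO, Grm4 was high on KO 2 (5.60), the first Dao probe (ILMN_2862633) was low on KO 4 (4.91), Psat1 was high on KO 1 (10.94) and Gas7 was low on KO 3 (6.97). In WT, the WT 4 array was high for Txndc15 (12.75) and low for Gtf3c6 (7.26). The last 2 genes were named for their likeness to Grin3a, which itself stands apart on WT 4.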

How the results depend on the processing

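Grin3a KO minus WT moved by more than the spread between replicates with no background correction (-0.63), an offset of 50 (-0.71) and the authors' processed values (-0.63), and kept its direction in all 25 alternatives; leaving out 1 array gave -1.21 to -1.01. Median shift per array moved the median of all probes to 0.11 and gave -0.96 for Grin3a. Grin3b KO minus WT ran from -0.24 to 0.11. The 9 probes called in KO against WT became 4 with slide as a block, 0 with day as a covariate, 14 with array weights, 0 with only the genotypes compared and 0 within slide 2. Leaving out 1 array gave 0 to 15 calls: 0 without WT 1, WT 2, Het 2 or KO 2, 1 without WT 4, 3 without Het 3 or KO 1, and 15 without WT 3. Without KO 1, KO 4 and Het 3, an alternative chosen after seeing the data, 4 were called. For Het against the mean of KO and WT, 1 was called within slide 1 and 11 within slide 2, against 0 on all arrays and 0 to 0 with 1 array left out. For P59 against P58 the count of 1 became 2 with the median shift, 4 without KO 1, KO 4 and Het 3, and 0 to 5 with 1 array left out (0 without Het 1, 2 without WT 3, 4 without WT 1, 5 without KO 4). With slide as a block the count was again 1, but for a probe lower at P59, and Asns was lost (adjusted p = 0.127). Grin3a Het minus the mean of KO and WT ran from 0.21 to 0.52 over its alternatives (adjusted p 0.854 to 1.00; 0.32 to 0.42 with 1 array left out). Its P59 minus P58 difference was -0.06 to 0.16 with 1 array left out, and changed sign without WT 4 (-0.056). The Het distance of Grin3b changed sign with slide as a block (-0.013), within slide 1 (-0.10), and without WT 3 (-0.07), Het 2 (-0.13) or KO 2 (-0.012); with 1 array left out it ran from -0.13 to 0.16. Dao differed by 5.85 within slide 1 (adjusted p = 6.19e-06) and by -2.80 within slide 2 on its first probe. The causes were not tested. Grik2 has no value under the stricter detection filter. No paired analysis was possible because the replicate numbers only follow the order of the samples. Low signal limits Grin3b, Grin3a in KO and the GluN2 genes, and 1 Grin3a probe leaves no check by a second one.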
